A study of Rattus norvegicus with 6 samples.

Results

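The pituitary hormone genes are Pomc, Gh1, Prl, Cga, Tshb, Lhb and Fshb, chosen by symbol in the RNA-seq tables of rat hippocampus. All 7 were listed, among 35362 symbols. They were picked as a gauge of tissue or RNA from outside the hippocampus, with their values already known, so the values below are a description. The tissue came from Sprague-Dawley rats, an outbred laboratory strain. The treated group was given B[a]P, benzo[a]pyrene, which is a combustion product of the polycyclic aromatic class. It was dissolved in corn oil and given daily by oral gavage at 2.0 mg/kg. The control group received the same volume of corn oil. Per the labels, gavage lasted 7 weeks, and the age of both groups was 7 weeks at a point that was not named. Each group had 1 RNA-seq library. The number of animals behind a library was not given, so no difference here has a replicate check and each compares 2 libraries, not the conditions. Below, values are given in the order treated library, then control library.

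The anterior pituitary is a gland below the hypothalamus whose cell types each make a hormone in very large amounts. Somatotropes make growth hormone (Gh1), lactotropes prolactin (Prl), corticotropes and the intermediate lobe the precursor proopiomelanocortin (Pomc), from which corticotropin, melanocortins and beta-endorphin are cut. Thyrotropes and gonadotropes make glycoprotein hormones, each a shared alpha subunit (Cga) joined to its own beta subunit (Tshb for thyrotropin, Lhb for luteinizing hormone, Fshb for follicle-stimulating hormone). Outside the gland, Pomc is made by neurons of the arcuate nucleus of the hypothalamus, and low levels of growth hormone transcripts have been described in the hippocampus itself.

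Levels are given as FPKM, reads scaled by gene length and library size, a unit that no label named and that was taken from the values. The values are spaced in steps, from which the depth of a library and the reads behind a gene can be worked out. The steps gave 87.7 M reads for the treated library and 92.9 M for the control. Depths of 43.8 M and 46.4 M match the steps too, and with these 6 of the 7 hormone genes had the same reads, longer implied lengths and the same intervals. This sameness is largely built into the method, which finds the same reads again at a longer length, so it is no check of the reads. Whether a read or a pair of reads was the unit counted is not known. The read numbers below are the smallest whole numbers that give both values of a gene at the depths used, and their intervals (exact conditional binomial, 95%) cover counting error only, not differences between animals or dissections.

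Pomc, the corticotropin precursor gene, was at 1.92 FPKM in the treated library and 7.50 FPKM in the control. It was 3.90-fold lower in the treated library, with an interval of 3.27 to 4.67, from 157 and 649 reads. It had the largest ratio of the 6 genes that were lower in the treated library. In the control library 82.9% of all symbols had a lower value than Pomc, against 68.04% in the treated library.

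Gh1, the growth hormone gene, was at 2.48 FPKM in the treated library and 4.95 FPKM in the control. It was 2.00-fold lower in the treated library (interval 1.67 to 2.41; 176 and 373 reads). Prl, whose product is the lactotrope hormone and a relative of growth hormone, was at 0.398 FPKM against 0.611 FPKM. The control library was 1.54 times as high for Prl, but on 35 and 57 reads the interval of 0.992 to 2.41 included no difference. Prl has many placental relatives in the rat genome, and these were checked because reads can be shared between like genes. Of 23 listed genes of that family, 15 were at 0 in both libraries, and the highest value of the others was 0.0396 FPKM.

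**Figure D1:**
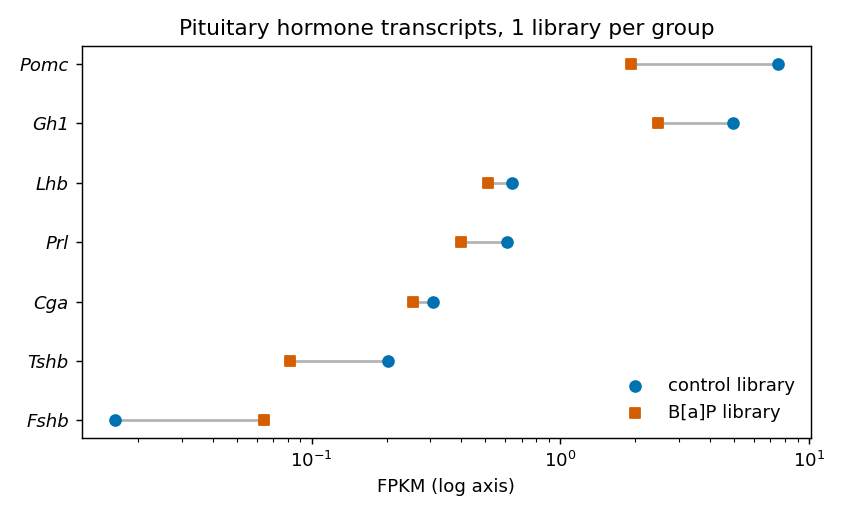
Level of each pituitary hormone gene in FPKM (log axis) in the treated library (squares) and the control library (circles), with a grey line joining the values of a gene and 1 library per group. The treated value is the lower of the pair for 6 of the 7 genes, most for Pomc (1.92 against 7.50 FPKM), and the higher for Fshb (0.0641 against 0.0161 FPKM).

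Cga, the alpha subunit of the thyrotrope and gonadotrope hormones, was at 0.257 FPKM in the treated library and 0.307 FPKM in the control. On 15 and 19 reads, the ratio of control to treated values was 1.20 with an interval of 0.576 to 2.53, so no difference was detectable at this depth. Tshb, the thyrotropin beta subunit, was at 0.0820 FPKM against 0.203 FPKM. It was 2.47-fold lower in the treated library (interval 1.59 to 3.94; 29 and 76 reads). Lhb, the luteinizing hormone beta subunit, was at 0.511 FPKM against 0.640 FPKM. On 104 and 138 reads the control to treated ratio of Lhb was 1.25, and its interval of 0.964 to 1.63 included no difference. At the lower depths Lhb had 52 and 69 reads and an interval of 0.861 to 1.83.

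Fshb, the follicle-stimulating hormone beta subunit, was the only one of the 7 that was higher in the treated library. It was at 0.0641 FPKM against 0.0161 FPKM, a ratio of 3.97. This rests on 15 and 4 reads, and the interval ran from 1.27 to 16.4. Among 5117 symbols with a mean of 0.02 to 0.1 FPKM, the range that holds Fshb, 26.1% were at least 2-fold higher in the treated library by the plain ratio, so a ratio past 2-fold was common at that level.

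**Figure D2:**
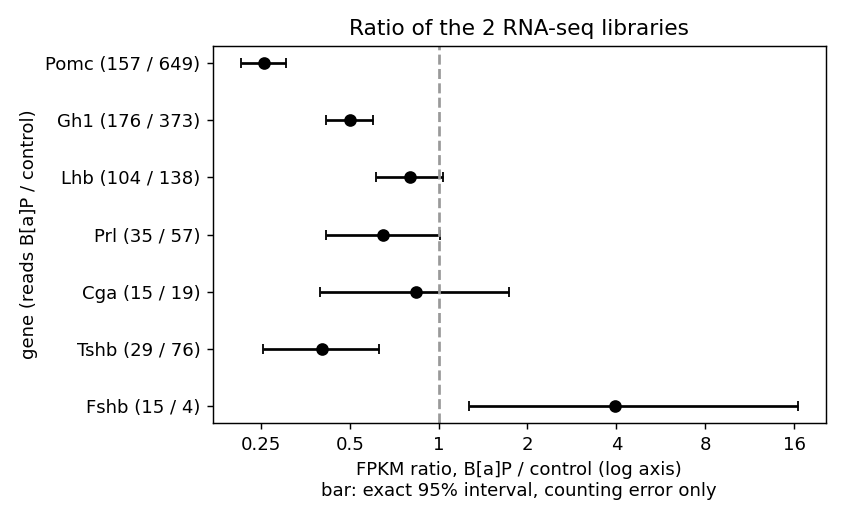
Ratio of the treated to the control library for each hormone gene (log axis), with bars for the exact 95% interval of the read numbers printed beside each name, which cover counting error only. The bars of Pomc, Gh1 and Tshb lie below 1 and that of Fshb above 1, while those of Lhb, Prl and Cga cross it.

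On the scale of log2(FPKM + 1), over genes that reached 1 FPKM in a library, a difference of 2-fold or more lower in the treated library was found for 0.52% of 13261 genes, and higher for 0.151%. Only Pomc and Gh1 reached 1 FPKM, and Pomc alone was at least 2-fold lower, with a log2 ratio of -1.54. Gh1 had a log2 ratio of -0.78, since the added 1 shrinks the ratio of low values. The median of all genes above the floor was 0.09 (SD 0.25 across genes) and that of all 7 hormone genes -0.15, of which 5 lay below 1 FPKM in both libraries.

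By the plain ratio, 3 of the 7 genes (Pomc, Gh1 and Tshb) were at least 2-fold lower and 1 (Fshb) at least 2-fold higher. Over the 13523 genes within the hormone genes' range of mean level, 0.0401 to 4.71 FPKM, 5.9% were at least 2-fold lower and 7.79% higher. The background depended on level. Between 1 and 10 FPKM, the range of Pomc and Gh1, 1.14% of 7996 symbols were at least 2-fold lower and 0.5% higher. Between 0.1 and 1 FPKM, the range of Prl, Cga, Tshb and Lhb, the shares were 5.3% and 8.35% of 6267 symbols. At a plain ratio of 1.5, where genes at 1 FPKM or more were 2.08% lower and 1.95% higher, Pomc and Gh1 were both lower. Gh1 lay at the boundary, with a plain ratio of 2.0003 before rounding.

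**Figure D3:**
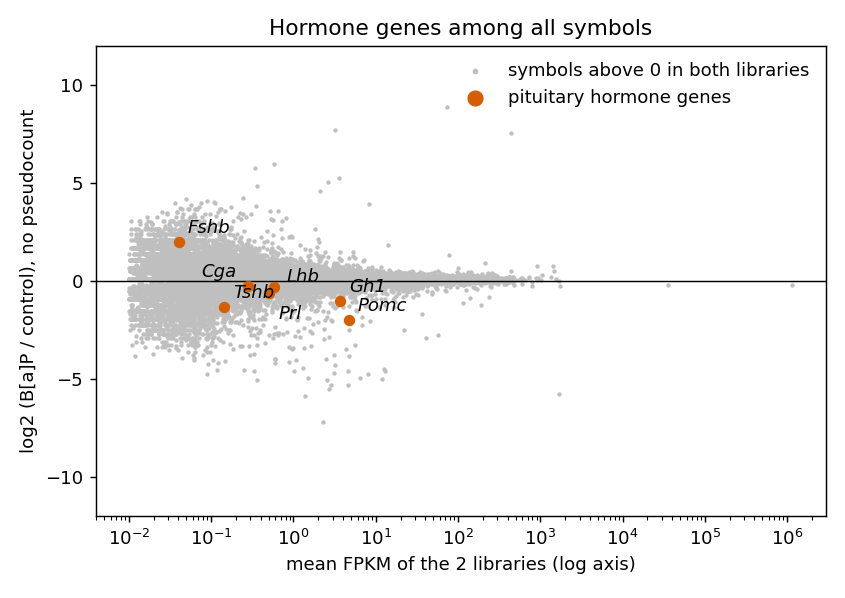
Plain log2 ratio of the treated to the control library (vertical axis) against the mean FPKM of both libraries (log axis) for symbols above 0 in both libraries with a mean of at least 0.01 FPKM (grey), with the 7 hormone genes in orange. The grey cloud widens towards low levels, and Pomc and Gh1 sit at or past 2-fold lower at levels where 1.14% of symbols did, while Fshb sits where 26.1% of symbols were at least 2-fold higher.

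The 7 values summed to 5.71 FPKM in the treated library and 14.2 FPKM in the control, 2.49-fold lower. Without Pomc the sums were 3.79 and 6.73 FPKM, 1.78-fold lower. The order of the levels differed between the libraries at the top. In the control library Pomc stood above Gh1 by 1.51-fold (interval 1.33 to 1.72), and in the treated library Gh1 stood above Pomc by 1.29-fold (interval 1.03 to 1.61). Gh1 and Pomc stood far above the others, with Lhb next, 7.74-fold below Gh1 in the control library and 3.76-fold below Pomc in the treated library. Lhb and Prl did not differ beyond counting error in either library, and neither did Prl and Cga in the treated library, Cga and Tshb in the control library, or Tshb and Fshb in the treated library. In RNA of whole tissue, fewer cells of a type and less RNA per cell cannot be told apart.

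The genes with values most like those of each hormone gene were found by distance between the log2(FPKM + 1) values in the 2 libraries, among genes with an established symbol. For Pomc they were Ace (1.42 against 8.003 FPKM in the control), Slc4a2 (2.77 against 6.77 FPKM) and Cdkn1c (2.31 against 5.68 FPKM). For Gh1 they were Slc2a12 (2.43 against 4.99 FPKM), Islr (2.62 against 4.51 FPKM) and Cgnl1 (2.57 against 5.51 FPKM). The nearest genes were Stpg1, Gprc5c and Ung for Prl, Lpar5, Fzd8 and Kcnq1 for Cga, Ly6g5b, Oacyl and Defb27 for Tshb, and Cyp2s1, Fgd1 and Slc1a5 for Lhb. With 2 libraries this likeness rests on a pair of values, and at the low levels of the other hormone genes very many symbols lay close.

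For 5 of the 7 genes the RefSeq promoter table of build GRCr8 held a window from 250 bases before to 50 bases after the annotated start. Those of Pomc and Tshb, 2 of the genes that differed beyond counting error, and of Prl are shown because their known regulators differ: POU1F1, the factor of somatotropes, lactotropes and thyrotropes, acts on Prl and Tshb, and TBX19 on Pomc. Each is written 5′ to 3′ on the strand of the gene, with matches in capitals to TATAAA, the TATA box, and to ATGNATA, a core of POU1F1 sites, each searched on both strands. The motifs did not overlap in these windows.
Pomc, chr6:32659103-32659402, plus strand: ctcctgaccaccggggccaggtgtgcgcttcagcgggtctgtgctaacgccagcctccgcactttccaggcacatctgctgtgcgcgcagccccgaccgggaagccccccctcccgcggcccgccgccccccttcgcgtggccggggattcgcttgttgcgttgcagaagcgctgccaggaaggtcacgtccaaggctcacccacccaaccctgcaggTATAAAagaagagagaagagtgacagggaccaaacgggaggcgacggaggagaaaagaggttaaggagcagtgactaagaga
Prl, chr17:38298168-38298467, minus strand: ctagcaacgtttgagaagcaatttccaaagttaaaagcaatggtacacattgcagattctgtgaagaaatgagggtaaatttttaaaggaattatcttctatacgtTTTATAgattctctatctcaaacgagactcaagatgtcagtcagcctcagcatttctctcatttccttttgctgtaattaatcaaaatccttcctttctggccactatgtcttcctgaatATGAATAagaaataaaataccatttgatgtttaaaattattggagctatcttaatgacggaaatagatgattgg
Tshb, chr2:192918005-192918304, minus strand: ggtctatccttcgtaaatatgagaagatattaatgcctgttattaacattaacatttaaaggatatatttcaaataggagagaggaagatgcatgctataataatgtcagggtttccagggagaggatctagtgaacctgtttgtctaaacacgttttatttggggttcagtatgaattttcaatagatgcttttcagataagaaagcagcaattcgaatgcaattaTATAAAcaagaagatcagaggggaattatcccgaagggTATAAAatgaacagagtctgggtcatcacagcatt
Pomc held a TATAAA 32 bases before the start. Prl held ATGNATA 24 bases before the annotated start and TATAAA on the opposite strand farther upstream, and Tshb held 2 copies of TATAAA and no ATGNATA. Whether the annotated starts are those used in the pituitary was not tested, so motifs nearer to another start may lie outside these windows. Of 33469 promoter windows of that length, 14.2% held TATAAA and 9.88% held ATGNATA on either strand. A match is a description of the letters, and no binding was measured here.

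Neighbouring genes were examined because reads of overlapping genes cannot be told apart where counting ignores strand, and the counting was not given in the sources used here. In the order of genes of GRCr8, the span of Pomc overlaps that of Efr3b, a membrane scaffold gene, which was at 32.6 FPKM in the treated library and 26.9 FPKM in the control, the opposite direction to Pomc. The span of Tshb overlaps that of Tspan2, a tetraspanin gene, which was at 25.2 against 24.6 FPKM, far above Tshb. Lhb overlaps Saxo3 and stands beside Ruvbl2, a helicase gene, at 12.2 against 10.9 FPKM. The values of Tshb and Lhb imply lengths of 4033 and 2321 bases, and that of Fshb 2668 bases, against 667 for Cga, 811 for Gh1, 932 for Pomc and 1004 for Prl. These lengths double at the lower depths, Lhb aside. The part of overlapping genes in these values was not tested. The neighbours of Gh1 were low, with Tcam1 at 0.8003 against 0.629 FPKM and Cd79b at 0.0283 FPKM in the treated library and listed at 0 in the control library. Beside Fshb lies Arl14ep, at 11.4 against 10.8 FPKM, and beside Prl its relative Prl3d1, listed at 0 in both libraries.

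Most genes that define pituitary cells were low. Of 17 lineage factors of the anterior pituitary, 15 were below 1 FPKM in both libraries, and the other 2, Sox2 (11.2 against 12.5 FPKM) and Neurod1 (7.64 against 7.76 FPKM), are also expressed in hippocampal progenitors and granule cells. Gata2, the third in level, was at 0.692 against 0.691 FPKM. Pou1f1 was at 0.0173 FPKM in the treated library and 0.0367 FPKM in the control, from 4 and 9 reads. Tbx19, the corticotrope factor that acts on Pomc, was at 0.111 against 0.138 FPKM, Lhx3 at 0.122 against 0.119 FPKM and Pitx1 at 0.00497 against 0.0281 FPKM. Hesx1 was listed at 0 in both libraries. Both factors above the floor were less than 2-fold apart.

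Receptors through which the hypothalamus drives the pituitary were mostly low. Of 10 genes, 4 reached 1 FPKM and none of these was 2-fold apart. Their median log2 ratio was 0.04, and -0.09 with the libraries scaled to a median ratio of 1. The highest were the somatostatin receptor gene Sstr2 (5.29 against 6.22 FPKM), the ghrelin receptor gene Ghsr (2.25 against 2.29 FPKM) and the thyrotropin-releasing hormone receptor gene Trhr (1.56 against 1.39 FPKM). The growth hormone-releasing hormone receptor gene Ghrhr, a marker of somatotropes, was at 0.00646 against 0.0152 FPKM, from 2 and 5 reads. Gnrhr, the gonadotrope receptor for gonadotropin-releasing hormone, chosen here after its values were seen, was at 0.352 against 0.140 FPKM, higher in the treated library by 2.52-fold (interval 1.67 to 3.89). Between 0.1 and 1 FPKM, the range that holds Gnrhr, 8.35% of symbols were at least 2-fold higher by the plain ratio.

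Of 15 genes of hypothalamic hormones and neuropeptides, 5 reached 1 FPKM and none of these was 2-fold apart. In the treated library 8 of the 15 were higher and 6 lower. Ghrh, the growth hormone-releasing hormone gene, below the floor and named after its values were seen, was 3.39-fold higher in the treated library. It had 16 and 5 reads and an interval of 1.19 to 11.8. At its level 8.35% of symbols were at least 2-fold higher by the plain ratio. Hcrt, the orexin precursor of the lateral hypothalamus, was at 1.99 against 1.08 FPKM, 1.84-fold higher in the treated library (interval 1.31 to 2.60). Sst, abundant in hippocampal interneurons, was at 80.7 against 72.7 FPKM, Cartpt at 3.85 against 3.93 FPKM and Crh at 1.60 against 1.58 FPKM. The posterior pituitary hormone genes were low, with Avp (vasopressin) at 0.273 against 0.386 FPKM and Oxt (oxytocin) at 0.0641 against 0.141 FPKM. Agrp, a peptide of the arcuate nucleus named after its values were seen, was at 0.567 against 0.466 FPKM, while Npy was listed at 0 in both libraries although hippocampal interneurons express it, so a 0 in these tables need not mean absence.

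Genes that cut and store peptide hormones were abundant. Of 11 genes, 10 reached 1 FPKM, none was 2-fold apart, and their median log2 ratio was 0.15, beside 0.09 for all genes above the floor. Cpe, which trims peptide precursors, was at 634 against 569 FPKM, Scg5, a chaperone of the convertase PC2, at 215 against 192 FPKM, and the granin gene Chgb at 160.02 against 133 FPKM. Pcsk1, the convertase that cuts corticotropin from the Pomc product, was at 1.27 against 0.785 FPKM, 1.62-fold higher in the treated library (interval 1.34 to 1.97), in the opposite direction to Pomc.

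Among the receptors for these hormones, Prlr, the prolactin receptor gene, differed most. It was at 0.0715 FPKM in the treated library and 1.13 FPKM in the control, 15.8-fold lower (interval 7.42 to 40.1; 7 and 117 reads), and with the added 1 its log2 ratio of -0.99 fell just short of 2-fold. Prlr is also a marker of choroid plexus epithelium. Of 13 receptor genes, 5 reached 1 FPKM, and their median log2 ratio was 0.07. Mc4r, a receptor for melanocortins cut from the Pomc product, was at 1.14 against 0.741 FPKM, 1.54-fold higher. The growth hormone receptor gene Ghr was at 2.59 against 2.22 FPKM, and the opioid receptor genes Oprd1 at 2.15 against 2.25 FPKM and Oprm1 at 1.69 against 1.56 FPKM. Of 9 genes of growth hormone and prolactin signalling, 5 reached 1 FPKM and none of these was 2-fold apart, with a median of 0.14 (-0.02 over all 9). In the treated library 3 of the 9 were higher and 6 lower. Below the floor, and named after their values were seen, Cish was 2.24-fold lower (interval 1.51 to 3.39) and Igfals 13.7-fold lower (interval 3.46 to 118, on 2 and 29 reads). At their levels 5.3% and 23% of symbols were at least 2-fold lower by the plain ratio. Jak2 was at 8.35 against 8.48 FPKM, Bcl6 at 5.81 against 6.04 FPKM and Stat5b at 5.71 against 5.10 FPKM.

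**Figure D4:**
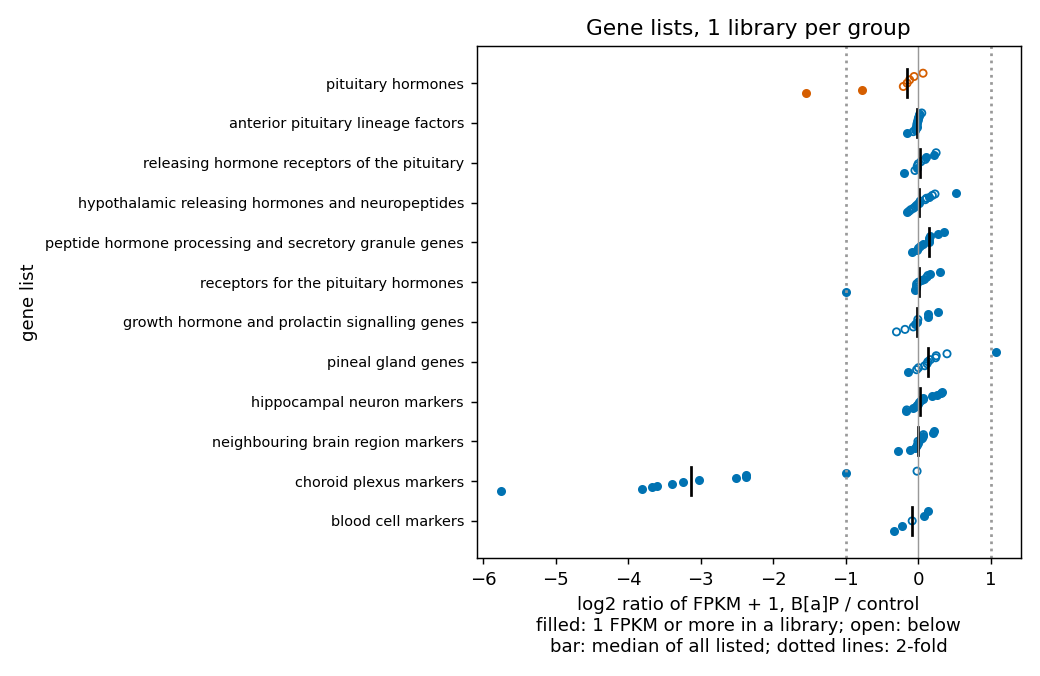
Log2 ratio of FPKM + 1 between the treated and control libraries (horizontal axis) for each gene of 12 lists (vertical axis), filled where a gene reached 1 FPKM in a library and open below, with a bar at the median of all listed genes and dotted lines at 2-fold. Pomc and Gh1 stand apart to the left of the other hormone genes, the choroid plexus list lies farther left with a median of -3.14, and the other lists lie near 0.

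Markers of the tissue and of other sources were set beside the hormone genes. Hippocampal neuron markers were present in both libraries: 11 of 14 reached 1 FPKM, none was 2-fold apart, and their summed level was 361 against 341 FPKM, led by Neurod6 (75.4 against 71.9 FPKM), Wfs1 (54.7 against 57.4 FPKM) and Bok (43.02 against 37.8 FPKM). Choroid plexus markers, which include Prlr, were lower in the treated library, as Pomc and Gh1 were. By the plain ratio all 12 were at least 2-fold lower. The share of all symbols was 1.14% between 1 and 10 FPKM and 5.3% between 0.1 and 1 FPKM, and some of the 12 lay outside these ranges. Otx2, the lowest of them, had 4 and 11 reads, and its control to treated interval of 0.769 to 11.2 included no difference. On the scale of log2(FPKM + 1), 10 of the 11 that reached 1 FPKM were at least 2-fold lower, beside 0.52% of all genes. Only Ttr, Folr1 and Clic6 reached 1 FPKM in the treated library as well. The others passed the floor through the control library alone, where they are high, so this count carries no support. The summed level of all 12 was 65.7 against 3429 FPKM, 52.2-fold lower, of which Ttr made up most (60.5 against 3300.2 FPKM). The next highest were Folr1 (1.02 against 24.8 FPKM) and Clic6 (1.06 against 24.1 FPKM). By the plain ratio Kcnj13 (0.731 against 7.93 FPKM) was 10.9-fold lower, Prlr 15.8-fold, and Kl, Aqp1, Cldn2, Tmem72, Slc4a5 and Sostdc1 between 26.1-fold (Slc4a5) and 40.1-fold (Tmem72). Blood cell markers summed to 329 against 371 FPKM, with Hbb at 140.2 against 177.5 FPKM, Hba1 at 122 against 115 FPKM and Hba2 at 65.6 against 76.9 FPKM. Markers of neighbouring brain regions summed to 41.4 against 42.4 FPKM, with 1 of 13, Adora2a, past 1.5-fold (0.757 against 1.14 FPKM), and with Ppp1r1b (21.9 against 23.7 FPKM), Slc17a6 (4.62 against 4.81 FPKM) and Rora (4.32 against 4.12 FPKM) highest. Pineal gland genes summed to 6.76 against 4.94 FPKM. The part of choroid plexus, pineal gland or other tissue in the values of the hormone genes was not tested.

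A list of miRNAs abundant in the pituitary or pineal gland was read from the miRNA-seq libraries, which the labels do not tie to the same animals. All values there were whole multiples of 1 step, within 0.05, which gave 14.4 M reads in the treated library and 16.3 M in the control library. The sequences of miR-7a-5p and miR-7b, the most abundant of the list, and of miR-375-3p, the most abundant of those at least 2-fold higher, are shown with the seed (bases 2 to 8) in capitals, from RefSeq, build GRCr8. The first and second share theirs.
miR-7a-5p: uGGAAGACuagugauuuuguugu
miR-7b: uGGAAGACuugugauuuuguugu
miR-375-3p: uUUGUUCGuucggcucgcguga
miR-7a-5p, very abundant in the pituitary and also made by hypothalamic neurons, was at 21815 RPM in the treated library and 19355 RPM in the control library, and miR-7b at 2625 against 2512 RPM. miR-375-3p, a miRNA of endocrine cells including those of the pituitary and pineal gland, was at 76.3 against 23.5 RPM, 3.25-fold higher (interval 2.89 to 3.66). miR-200a-3p was at 14.07 against 3.32 RPM, 4.24-fold higher (interval 3.12 to 5.83). These were the 2 of the 7 list members at 10 RPM or more that were at least 2-fold higher, against 3.92% of all 332 miRNAs at that level. miR-200a-3p reached 10 RPM in the treated library only, the library where it is high, so this count carries no support. The median log2 ratio was 0.36 for the 332 miRNAs and 0.31 for the 7 list members. Of all 13 list members, miR-183-5p (0 and 15 reads) and miR-96-5p (35 and 56 reads) were lower in the treated library. The ratio interval of miR-96-5p, 0.450 to 1.10, included no difference. miR-141-3p was at 0 in both libraries.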

How the data were processed

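Hippocampus RNA of Sprague-Dawley rats was sequenced as 1 RNA-seq and 1 miRNA-seq library per group, grouped by title. The authors deposited FPKM values per gene symbol and RPM values per miRNA, both units inferred from the values since no label names them. Per the submitters' processing notes, bcl2fastq, rn6 and rn5 were used, in roles that are not stated. No aligner, counter or annotation is given in the sources used here. The hormone genes and all lists were chosen with earlier results of these data known.

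Ratios of treated over control values were taken on the scale of log2(FPKM + 1), which understates the ratio of low genes, where a gene reached 1 FPKM in a library, with 2-fold as the size rule. With 1 library per group no test was possible. Folds of single genes are plain ratios. The text names all hormone genes and, in each list, genes at 1.5-fold or more with 1 FPKM in either library and the 3 highest, and the nearest genes by level and in the genome of each hormone gene. By that plain ratio 1.95% of genes above the floor were higher and 2.08% lower.

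Depth was recovered from the values. Of 3143 symbols under 0.05 FPKM in both libraries, 753 shared 1 ratio, which gave the control library 1.06 times the depth. The depths themselves came from a search, added after seeing the data, for the largest depth at which most of 1972 low genes have a whole length (within 0.03 bases). Its first version, which took the largest depth within 90% of the best share of whole lengths, returned 43.8 M and 46.4 M. The limit was lowered to 70%, and the range of read numbers used was changed, after that result on the real table was seen. Whole lengths made up 73.8% of genes at the depths used, 85.3% at the lower depths, where most such lengths are whole too, and 38.03% at doubled depths. The choice is thus not settled by the values alone. A gene's reads are the smallest whole numbers at a whole length from 150 to 12000 bases. Tested on simulated counts for 35362 symbols, 403 of 500 genes got their true reads and 94 got them divided by a common factor, so the true numbers may be larger and the intervals then narrower. The simulation also planted 4-fold differences in 200 genes, all of which passed the size rule. These genes were taken only from levels above the 1 FPKM floor, where a 4-fold difference passes the rule almost by construction. The result therefore says nothing about genes at the levels of most hormone genes. RefSeq tables of GRCr8 (all 7 genes matched by symbol) gave names, neighbours and sequences only. The methylation and lncRNA tables were not used here. Python 3.11.15, numpy 2.4.6, pandas 2.3.3, scipy 1.17.1 and matplotlib 3.10.9 were used.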

Additional observations from a re-analysis of the deposited data

How the results depend on the processing

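No paired analysis was possible because each group has 1 library and no result comes from a test; for the same reason no replicate could be left out. A pseudocount cannot turn the direction of a ratio, and each symbol has 1 line, so the choice among lines changed nothing. Scaling could turn a direction and turned none of the 7 hormone genes. The count of hormone genes at least 2-fold lower stayed at 1, and that of higher ones at 0, with both other pseudocounts, both other floors and the scaling. Much of this was fixed in advance. A 2-fold difference in FPKM + 1 needs a value of at least 1 FPKM, so a lower floor could change neither count. At the floor of 1 FPKM only Pomc and Gh1 were counted, both lower, so no other pseudocount could give a higher one. By the plain ratio without pseudocount or floor, an alternative chosen after seeing the data, 3 were lower and 1 higher. The median log2 ratio of the hormone genes above the floor (Pomc and Gh1) was -1.16; it was -1.44 with a pseudocount of 0.1, -1.48 with 0.01, -0.15 with no floor, -0.18 with a floor of 0.1 FPKM and -0.62 by the plain ratio, which drops the pseudocount and the floor together. Counts over all genes (20 higher, 69 lower) were 53 and 127 with a pseudocount of 0.1, 63 and 137 with 0.01, and 1833 and 1317 by the plain ratio. With no floor and the pseudocount kept they stayed at 20 and 69, which the same arithmetic fixes in advance. The other lists held 1 gene higher and 10 lower, and 12 and 19 by the plain ratio. Scaling both libraries to a median ratio of 1 changed the plain log2 ratio by 0.10, and the log2(FPKM + 1) ratio of low genes by less (Pomc -1.62, Gh1 -0.86). The miRNA list's median of 0.31 became -0.036 when the miRNA libraries were scaled likewise, by a log2 factor of 0.36. With the mRNA libraries scaled, 4 list medians turned from above to below 0: releasing hormone receptors (0.04 to -0.09), hypothalamic peptides (0.02 to -0.05), hippocampal neuron markers (0.07 to -0.035) and neighbouring brain regions (0.02 to -0.05). Depth limits Cga and Fshb most, at 15 reads or fewer in a library.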

Other observations

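The pineal gland is another endocrine gland of the brain, which makes melatonin and shares photoreceptor genes with the retina. Most of its listed genes had a higher value in the treated library, the opposite direction to Pomc and Gh1. Of 11 genes, 9 had a higher value in the treated library, and the like share of all symbols was not computed. Opn1sw, 1 of the 9, was at 0.0489 against 0.0461 FPKM, on 7 reads in each library. Of the list, 2 reached 1 FPKM, Tph1 and Rom1. Tph1 was at least 2-fold higher on the log2(FPKM + 1) scale, beside 0.151% of all genes above the floor. It reached the floor in the treated library only. With a control value near 0, the filter itself sets such a log2 ratio near 1 or more, so this count carries no support. The median log2 ratio of the 11 was 0.13, beside 0.03 for all listed symbols. Tph1, the tryptophan hydroxylase of the pineal gland and gut, was at 1.14 FPKM in the treated library and 0.0179 FPKM in the control, from 419 and 7 reads (interval of the ratio 30.5 to 159). The genes below 1 FPKM are named after their values were seen. At a mean of 0.02 to 0.1 FPKM, the range of Rbp3, Pde6c and Crx, 26.1% of all symbols were at least 2-fold higher by the plain ratio, and at 0.1 to 1 FPKM, the range of Sag, 8.35%. The arrestin gene Sag was at 0.203 against 0.0123 FPKM (31 and 2 reads), Rbp3, which encodes a retinoid-binding protein, at 0.151 against 0.0257 FPKM (50 and 9 reads), Pde6c, a phosphodiesterase gene of cones, at 0.112 against 0.0142 FPKM (30 and 4 reads), and the photoreceptor and pineal factor gene Crx at 0.0705 against 0.00605 FPKM (11 reads and 1 read, an interval of 1.69 to 502). Gngt1, a transducin subunit gene, was at 0.317 FPKM in the treated library and listed at 0 in the control library. The enzymes that make melatonin from serotonin differed less. Aanat was at 0.0386 against 0.0546 FPKM and Asmt at 0.373 against 0.261 FPKM. Rom1, the highest of the list, was at 3.62 against 4.08 FPKM and Grk1 at 0.688 against 0.429 FPKM. The part of pineal tissue in these values was not tested.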
